A study of Homo sapiens with 27 samples.

Results

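Ionizing radiation and the drug etoposide both break DNA and both drive normal fibroblasts into senescence. The mRNA of the resulting cells is compared here gene by gene, as irradiated minus etoposide-treated. The comparison rests on 6 RNA-seq libraries of the 27 libraries in the series, 3 titled as senescent after ionizing radiation and 3 titled as senescent after etoposide, and on the protein-coding genes counted in them. The cells were IMR90, diploid fibroblasts grown from fetal human lung that have a limited life span in culture, and the labels give their genotype as wild type. Irradiated cells received 15 Gy and were harvested after 10 days. Etoposide-treated cells received 50 µM of the drug in 3 treatments over 10 days and were harvested on day 10. Cycling cells taken below confluence (2 RNA-seq libraries) and contact-inhibited quiescent cells (3 libraries) served as references, and 2 libraries of cycling cells given 25 nM thapsigargin for 3 h entered the fit with them. All cells grew in high-glucose medium with fetal bovine serum. The agent, its dose and the time since the last exposure differ together between the senescent groups and cannot be told apart. The labels number the libraries within a group but do not say that they came from separate cultures, so the p-values measure the spread between libraries, which may be technical.

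Senescent cells stop dividing for good but stay metabolically active, and many release a mixture of chemokines, cytokines, growth factors and proteases known as the senescence-associated secretory phenotype. The factors NF-kappaB and C/EBP-beta are its best known transcriptional drivers, and the arrest itself rests on inhibitors of cyclin-dependent kinases such as p21 and p16. Proteins that leave the cell are made on ribosomes at the endoplasmic reticulum (ER), folded there by chaperones and shipped through the Golgi. Etoposide traps topoisomerase II on cut DNA, while radiation breaks DNA directly.

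The 3 irradiated libraries held 28859390 to 30041546 gene counts and the 3 etoposide libraries 31780641 to 41351402. Unmapped reads made up 1.35 to 1.40% of the thapsigargin libraries and 27.8 to 40.6% of the other RNA-seq libraries. Reads that mapped to several places made up 18 to 21.2% of the reads of irradiated libraries and 13.3 to 17.9% of those of etoposide libraries. RNA came from detergent lysates prepared for ribosome profiling, not from whole cells. Fibroblast markers were high in both groups, with a summed level of 10105 to 10506 CPM (counts scaled to a library of 1000000) after irradiation and 9611 to 10821 CPM after etoposide. Of those 11 markers, VIM was called higher and PDGFRA and LUM lower after irradiation, and 0 or 1 were called lower when any of the 6 libraries was left out. Blood-cell markers were at or near 0 in all 6 libraries, with summed levels of 0.265 to 0.585 CPM and 1.85 to 1.99 CPM. Of 10 endothelial markers, TEK had 31.2 to 35.0 CPM after irradiation and 54.7 to 88.1 CPM after etoposide, VWF had 1.3 to 2.2 CPM over the 6 libraries, and the other 8, PECAM1 and CDH5 among them, reached at most 0.458 CPM. TEK and KDR were called lower after irradiation, and 1 marker was when any of the 6 libraries was left out. Of 12 epithelial markers, the keratin genes KRT18 (52.8 to 78.0 CPM over the 6 libraries), KRT8 (13 to 22.6 CPM) and KRT19 were the ones above 1 CPM, while EPCAM reached at most 0.35 CPM. KRT19 was called higher after irradiation, at 4.79 to 8.2 CPM against 1.99 to 2.74 CPM, and was not called without irradiated replicate 2.

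The irradiated and etoposide-treated cells carried widely different mRNA levels, and the large differences lay on one side. Of 13291 genes tested, 2998 were called at an adjusted p under 0.05 by edgeR's quasi-likelihood test (22.6% of those tested), 1283 higher after irradiation (9.65%) and 1715 lower (12.9%). At 2-fold or more the sides became unequal: of 1017 such genes (7.65%), 857 were lower after irradiation (6.45%) and 160 higher (1.2%). At 8-fold or more, 64 were lower (0.482%) and 2 were higher (0.015%). The median over all genes tested was 0.06 on the log2 scale. Counts of called genes in the lists below are to be read beside these shares, 9.65% higher and 12.9% lower. The 3 libraries of one group did not overlap those of the other for 48.4% of the genes tested. Without irradiated replicate 1 the count of called genes was 1896, and without etoposide replicate 2 it was 1842. With the irradiated and etoposide libraries fitted alone it was 4385.

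**Figure D1:**
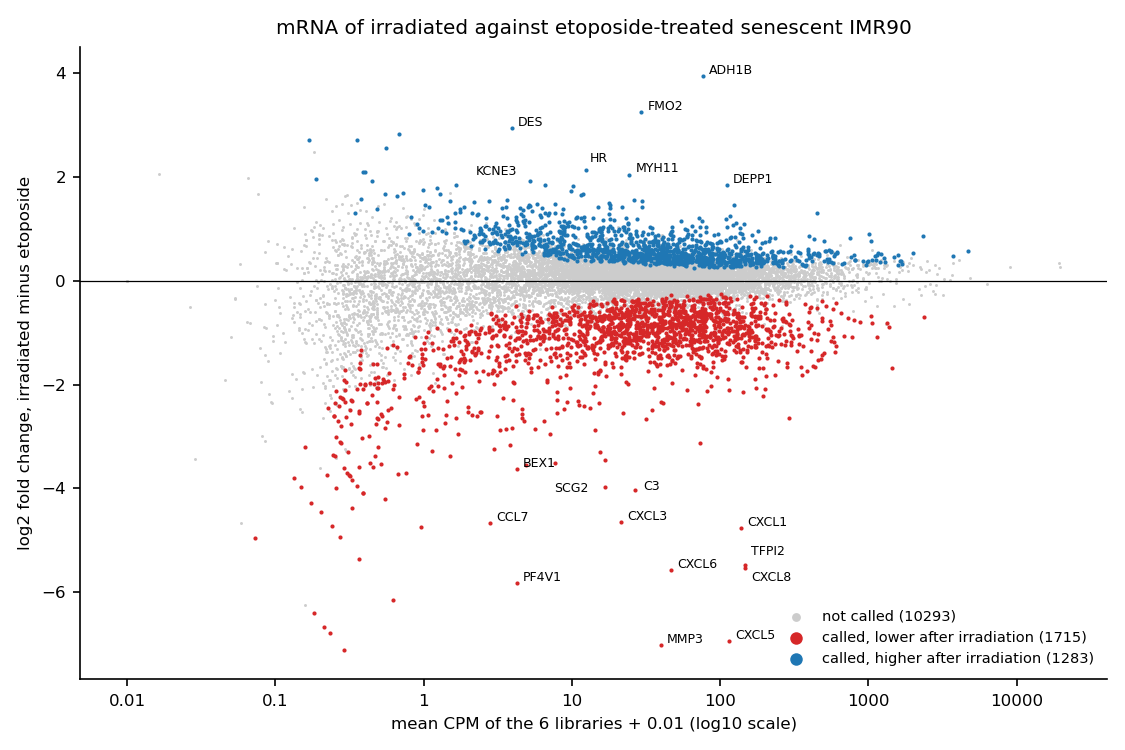
Each point is 1 of the 13291 tested genes, with the mean CPM of the 6 libraries plus 0.01 on a log axis and the log2 fold change, irradiated minus etoposide, on the vertical axis. Red points are called lower after irradiation (1715) and blue points higher (1283); the red points reach further from 0, and MMP3 and the CXC chemokines lie at the bottom.

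For most called genes the quiescent mean was nearer to the irradiated than to the etoposide mean, though often outside both. Of the 1715 genes called lower after irradiation, the quiescent mean was nearer to the irradiated mean for 1449 (84.5%). It lay between the senescent means for 856 and below both for 779 (45.4%). The cycling mean was nearer to the etoposide mean for 1025 of them (59.8%). For the 1283 genes called higher, the quiescent mean was nearer to the irradiated mean for 1044 (81.4%), and it lay above both senescent means for 738 (57.5%). The cycling mean was nearer to the irradiated mean for 799 of them (62.3%). These positions describe means of 2 or 3 libraries and carry no test. The quiescent mean pools unlike libraries: summed collagen mRNA, for example, was 5428 CPM in quiescent replicate 1 and 12080 and 11690 CPM in replicates 2 and 3. The same shares were not computed over all genes tested, so they are not shown to be particular to called genes.

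Chemokines made the widest gap. They are small secreted proteins that call in leukocytes, and those of the CXC class with a glutamate-leucine-arginine motif attract neutrophils through the receptor CXCR2. Of 21 chemokine genes listed, 16 passed the filter on low counts, 11 were called lower after irradiation and 0 higher, with a median log2 difference of -2.62 against 0.06 over all genes tested (-3.73 with the 6 libraries fitted alone). The 5 genes that did not pass were CXCL9, CXCL11, CXCL14, CCL5 and CCL8. A gene near 0 after irradiation may have passed the filter through its etoposide level, and could then only be called lower. PF4V1, with 11 irradiated and 780 etoposide counts, and CCL7, with 16 and 515, may be such genes. The count of lower genes may thus be partly set by the filter. The summed chemokine level was 103 to 115 CPM in irradiated libraries, 613 to 1800 CPM in etoposide libraries, 98.7 to 126 CPM in cycling and 82 to 122.8 CPM in quiescent libraries. The irradiated cells thus stood within or next to the range of cells that were not senescent, and the etoposide-treated cells stood above all of them.

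CXCL8, the neutrophil attractant also called interleukin 8 (chr4:73740569-73743716), had 4.47, 6.87 and 7.41 CPM in the irradiated libraries and 437, 152 and 279 CPM in the etoposide libraries. The groups did not overlap, and the irradiated values lay below the cycling mean of 9.88 CPM. The fold was 46.3 (log2 -5.53 ± 0.65 SE, edgeR adjusted p = 0.000145). CXCL5, a CXCR2 ligand, had 1.63, 1.95 and 2.00 CPM after irradiation and 457, 94.8 and 136 CPM after etoposide. CXCL1, a ligand of the same receptor, had 10.1, 8.04 and 11.5 CPM after irradiation and 395, 130 and 279 CPM after etoposide. Both were separated completely, by -6.94 ± 0.77 (adjusted p = 0.000102, edgeR) and -4.76 ± 0.52 (adjusted p = 8.53e-05, edgeR) on the log2 scale. The log2 difference was -5.57 for CXCL6, -4.64 for CXCL3, -5.83 for PF4V1 and -2.71 for CXCL2, the last named from its place in the cluster below and not by the rule for named genes. Genes of this family are close copies of one another, so reads shared between CXCL1, CXCL2 and CXCL3 or between CXCL5 and CXCL6 may have been dropped as multimapping. CCL2, which attracts monocytes, differed less, with 70.2, 81.0 and 63.0 CPM against 206, 172 and 175 CPM (log2 -1.37 ± 0.16), and CCL7, another monocyte attractant, had 16 counts in all over the irradiated libraries and 515 over the etoposide libraries.

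The etoposide libraries themselves differed in chemokine level. Of the 11 called chemokines, replicate 1 was the highest etoposide library for 8 and replicate 2 the lowest for 10. Without etoposide replicate 1 the log2 difference was -5.96 for CXCL5, -4.09 for CXCL6 and -5.08 for PF4V1, and without irradiated replicate 3 it was -6.68 for PF4V1, which had 11 counts in the irradiated group. The median standard deviation of log2 CPM over the 16 chemokines was 0.79 among etoposide libraries and 0.18 among irradiated libraries, against 0.14 and 0.12 over all genes tested.

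**Figure D2:**
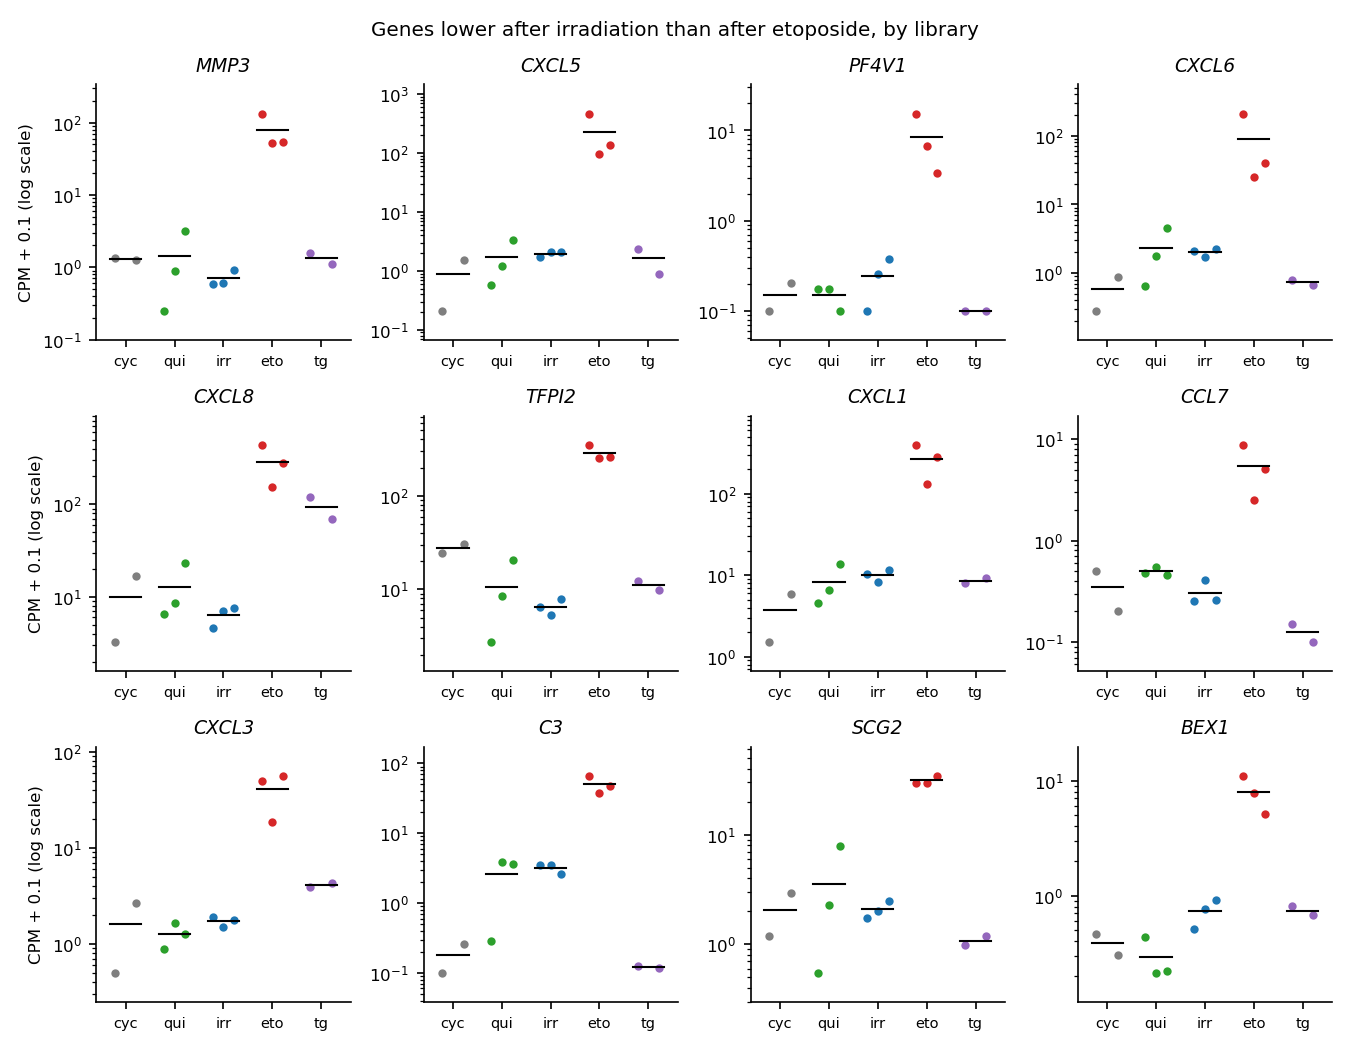
CPM plus 0.1 on a log axis for the 12 genes with the largest difference on the lower side, 1 point per RNA-seq library and a bar at the group mean; cyc is cycling, qui quiescent, irr irradiated, eto etoposide and tg thapsigargin. In all 12 panels the 3 etoposide points lie above the 3 irradiated points, and for CXCL5, CXCL6 and CXCL8 etoposide replicate 1 is the highest.

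Most of these chemokine genes are neighbours. The segment chr4:73740569-74455005 of hg38, from CXCL8 to AREG, holds 13 protein-coding genes, of which 10 were tested. The 8 called genes were all lower after irradiation: CXCL8, CXCL6, PF4V1, CXCL1, CXCL5, CXCL3, CXCL2 and EREG, the gene of the EGF-family ligand epiregulin. EREG had 3.33, 4.02 and 4.04 CPM after irradiation against 25.5, 17 and 18.2 CPM after etoposide. MTHFD2L, a mitochondrial folate enzyme, and AREG, another EGF-family ligand, were not called. A similar block lies at chr11:102520508-102955732, from MMP7 to MMP13, where 4 of 9 protein-coding genes were tested and all 4 (MMP8, MMP10, MMP1 and MMP3) were called lower. In both segments the filter on low counts may have admitted genes through their etoposide level. PF4V1 and MMP10, the latter with 5 irradiated and 183 etoposide counts, may be such genes. The shared direction within a segment may thus be partly set by the filter.

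The promoters of 4 chemokine genes from the cluster are shown for the short NF-kappaB-type stretch that they share. That of ADH1B, the gene with the largest difference on the other side, is printed beside them. Each is the 150 bases just before the RefSeq start (GRCh38.p14), written 5′ to 3′ on the gene's strand, with matches in capitals to the letters searched: GGANTTTCC and GGGNNTTCC, forms within the NF-kappaB site, TGANTCA, the AP-1 site, and TTGCNNAA, within the C/EBP site, each on both strands.
CXCL8, chr4:73740419-73740568, plus strand: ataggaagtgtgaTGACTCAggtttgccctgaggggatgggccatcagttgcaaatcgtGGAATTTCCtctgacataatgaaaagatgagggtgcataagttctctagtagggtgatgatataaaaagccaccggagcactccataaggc
CXCL6, chr4:73836528-73836677, plus strand: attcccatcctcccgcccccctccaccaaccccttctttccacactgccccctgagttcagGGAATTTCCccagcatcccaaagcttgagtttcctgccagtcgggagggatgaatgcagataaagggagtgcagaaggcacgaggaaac
CXCL5, chr4:73998678-73998827, minus strand: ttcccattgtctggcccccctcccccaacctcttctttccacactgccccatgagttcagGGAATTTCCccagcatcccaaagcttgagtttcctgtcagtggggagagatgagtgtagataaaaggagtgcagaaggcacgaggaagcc
CXCL1, chr4:73869243-73869392, plus strand: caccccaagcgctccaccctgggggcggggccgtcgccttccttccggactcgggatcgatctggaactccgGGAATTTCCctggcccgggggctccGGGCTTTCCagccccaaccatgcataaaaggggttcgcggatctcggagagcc
ADH1B, chr4:99321402-99321551, minus strand: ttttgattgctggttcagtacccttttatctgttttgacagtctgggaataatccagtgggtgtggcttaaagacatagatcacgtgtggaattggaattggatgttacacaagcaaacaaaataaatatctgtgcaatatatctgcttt
All 4 chemokine windows hold GGAATTTCC, starting 91 bases before the start in CXCL8, 90 in CXCL5, 89 in CXCL6 and 78 in CXCL1, and no motif searched is in the ADH1B window. Over the full 300-base windows of the RefSeq promoter table (250 bases before the start and 50 after), GGANTTTCC was found in 7 of the 10 called chemokines with an entry and in 1.64% of all 27305 promoters. GGGNNTTCC was found in 5 of the 10 and in 6.60% of all promoters. TGANTCA was found in 2 of the 10 and 7.76% of all promoters, and TTGCNNAA in 2 of the 10 and 10.6% of all promoters. Over the 10824 promoters of tested genes the shares were 1.59, 8.1, 4.59 and 7.06% in the same order. Only exact letters were searched, so a near form such as ttgcaaat in the CXCL8 window was not counted. Over all called genes with an entry, either NF-kappaB form was in 12.1% of 1351 promoters of genes called lower and in 7.31% of 1039 called higher, against 9.56% of 10824 tested genes. A match of letters is a description of the window and shows no binding.

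The mRNAs of the NF-kappaB subunits NFKB1 and RELA were not called, while some NF-kappaB targets were. NFKB1, the p105 and p50 subunit of NF-kappaB, had 51.8, 54.6 and 59.4 CPM after irradiation and 56.9, 54.7 and 58.1 CPM after etoposide, overlapping groups. RELA, the p65 subunit, had 61.4, 53.4 and 57.2 CPM against 40.9, 48.5 and 55.4 CPM (log2 0.25 ± 0.17, edgeR adjusted p = 0.32), and its ribosome footprints were called higher at 0.28. Levels of these mRNAs say nothing of the activity of the proteins, which is set after translation. Of 27 tested NF-kappaB subunits and feedback targets, 8 were called lower and 0 higher, and the median was -0.00. The called members included ICAM1, a leukocyte adhesion protein (-1.57), NFKBIZ, an atypical inhibitor (-1.24), and IRAK2, a kinase below the interleukin 1 receptor (-0.94). NFKBIA, the feedback inhibitor, was lower by a smaller amount (log2 -0.44 ± 0.13, edgeR adjusted p = 0.0326), and this call was lost in 4 of the fits with 1 library left out, those without irradiated replicate 1 or 3 or etoposide replicate 1 or 3. Among 18 tested C/EBP, AP-1 and GATA regulators, 4 were higher, among them JUND (0.83), an AP-1 subunit, and MAF (1.52), and 1 was lower.

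Cytokines followed the chemokines with smaller differences. Of 18 tested interleukins, colony factors and related cytokines, 10 were called lower and 1 higher, with a median of -1.06. IL6, a canonical senescence cytokine, had 24.6, 24.6 and 24.8 CPM after irradiation and 55.5, 33.0 and 59.4 CPM after etoposide, above the cycling mean of 9.15 CPM in both states (log2 difference -1.0 ± 0.25, edgeR adjusted p = 0.0107). IL1B, an inflammatory cytokine made as an inactive precursor, had 1.59, 1.72 and 1.57 CPM against 12.4, 7.69 and 17.6 CPM (log2 -2.95 ± 0.34). IL1A, its cell-associated relative, had 0.984, 1.44 and 1.53 CPM against 3.35, 1.65 and 2.50 CPM and was not called (adjusted p = 0.105, edgeR). IL11 (-2.03), LIF (-1.04) and GDF15 (-1.45), a stress-induced cytokine, were called lower. CSF3, the neutrophil growth factor, had 0 counts in the irradiated libraries and 44 in the etoposide libraries, at least 11.4-fold lower after irradiation when 3 counts over the group are taken as the floor. Running the other way was IL32, at 7.87, 7.26 and 5.26 CPM after irradiation and 2.06, 2.18 and 3.61 CPM after etoposide (log2 1.37 ± 0.29). CSF3 and IL32 were picked after their values were seen. CSF3, with 0 irradiated counts, may have passed the filter on low counts through its etoposide level and could then only be called lower. The count of lower cytokines may thus be partly set by the filter.

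Secreted proteases and their inhibitors were also higher in etoposide-treated cells. Of 15 tested matrix metalloproteinases and their tissue inhibitors, 7 were called lower after irradiation and 0 higher, with a median of -0.58. MMP3, stromelysin 1 (chr11:102835801-102843609), showed the largest fold of the rule-named genes, 129, with 0.492, 0.507 and 0.824 CPM after irradiation and 131, 51.6 and 54.0 CPM after etoposide (log2 -7.01 ± 0.69, edgeR adjusted p = 5.78e-05). Cycling and quiescent means were 1.19 and 1.33 CPM, so the etoposide libraries alone stood above both references. MMP1, interstitial collagenase, behaved otherwise. Its levels were 12.6, 14.1 and 13.8 CPM after irradiation, 78.4, 60.5 and 68.6 CPM after etoposide, 76.2 CPM on average in cycling and 58.1 CPM in quiescent cells, so the irradiated libraries stood below the means of those states. TIMP1, an inhibitor of these enzymes, had 688, 750 and 627 CPM against 2016, 2302 and 2273 CPM, with 772 and 748 CPM as cycling and quiescent means. MMP10 was lower by a log2 difference of -4.74 on 5 irradiated counts, and -5.43 without irradiated replicate 3. It may have passed the filter through its etoposide level, so the count of lower genes here may be partly set by the filter.

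The plasminogen system activates metalloproteinases and dissolves clots. In a list of plasminogen activators and serpins, not all of which act in that system, 9 of 11 tested genes were lower after irradiation. The other 2, SERPING1 and SERPINF1, were higher, and the median was -1.59. PLAU, urokinase, had 146, 182 and 142 CPM after irradiation and 576, 534 and 552 CPM after etoposide. SERPINE2 (-2.63), SERPINB2 (-2.14) and PLAT (-1.68), the tissue activator, were lower too. The count of higher genes was 1 without irradiated replicate 1 or 2 or etoposide replicate 2 or 3.

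Other secreted groups repeated this direction. Of 14 tested insulin-like growth factor genes, binding proteins and stanniocalcins, 9 were lower and 1 higher (median -0.95), the higher call being lost in every fit with 1 library left out except that without etoposide replicate 3. STC1, a secreted glycoprotein that blocks the protease PAPPA, had 15.6, 11.9 and 18.1 CPM after irradiation and 130, 102 and 164 CPM after etoposide (log2 -3.12 ± 0.20, edgeR adjusted p = 8.64e-06). IGFBP3 (-2.14) and IGFBP2 (-1.46), which bind insulin-like growth factors, followed, as did IGF2 itself (-2.87) at 22 irradiated counts. Of 19 tested complement and coagulation genes, 9 were lower and 1 higher (median -1.05), the higher call being lost in every such fit except that without etoposide replicate 1. C3, the central complement protein, had 3.37, 3.44 and 2.47 CPM after irradiation and 65.9, 37.5 and 47.4 CPM after etoposide, and 0.0777 CPM on average in cycling cells, so both senescent states stood above cycling. TFPI2, a protease inhibitor of the extracellular matrix, had 6.40, 5.23 and 7.73 CPM against 348, 254 and 260 CPM, with 27.2 CPM in cycling cells. SCG2, secretogranin II, differed by -3.98 and BEX1 by -3.62 on the log2 scale. PTGS2, the inducible cyclooxygenase COX-2 that makes prostaglandin precursors, had 2.42, 1.68 and 4.20 CPM against 45.8, 13.3 and 32.3 CPM (log2 -3.46 ± 0.53), and PTGS1 differed by -1.68. PTGIS, prostacyclin synthase, ran the other way, with 16, 12.8 and 19 CPM after irradiation and 4.01, 3.89 and 5.52 CPM after etoposide.

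**Figure D3:**
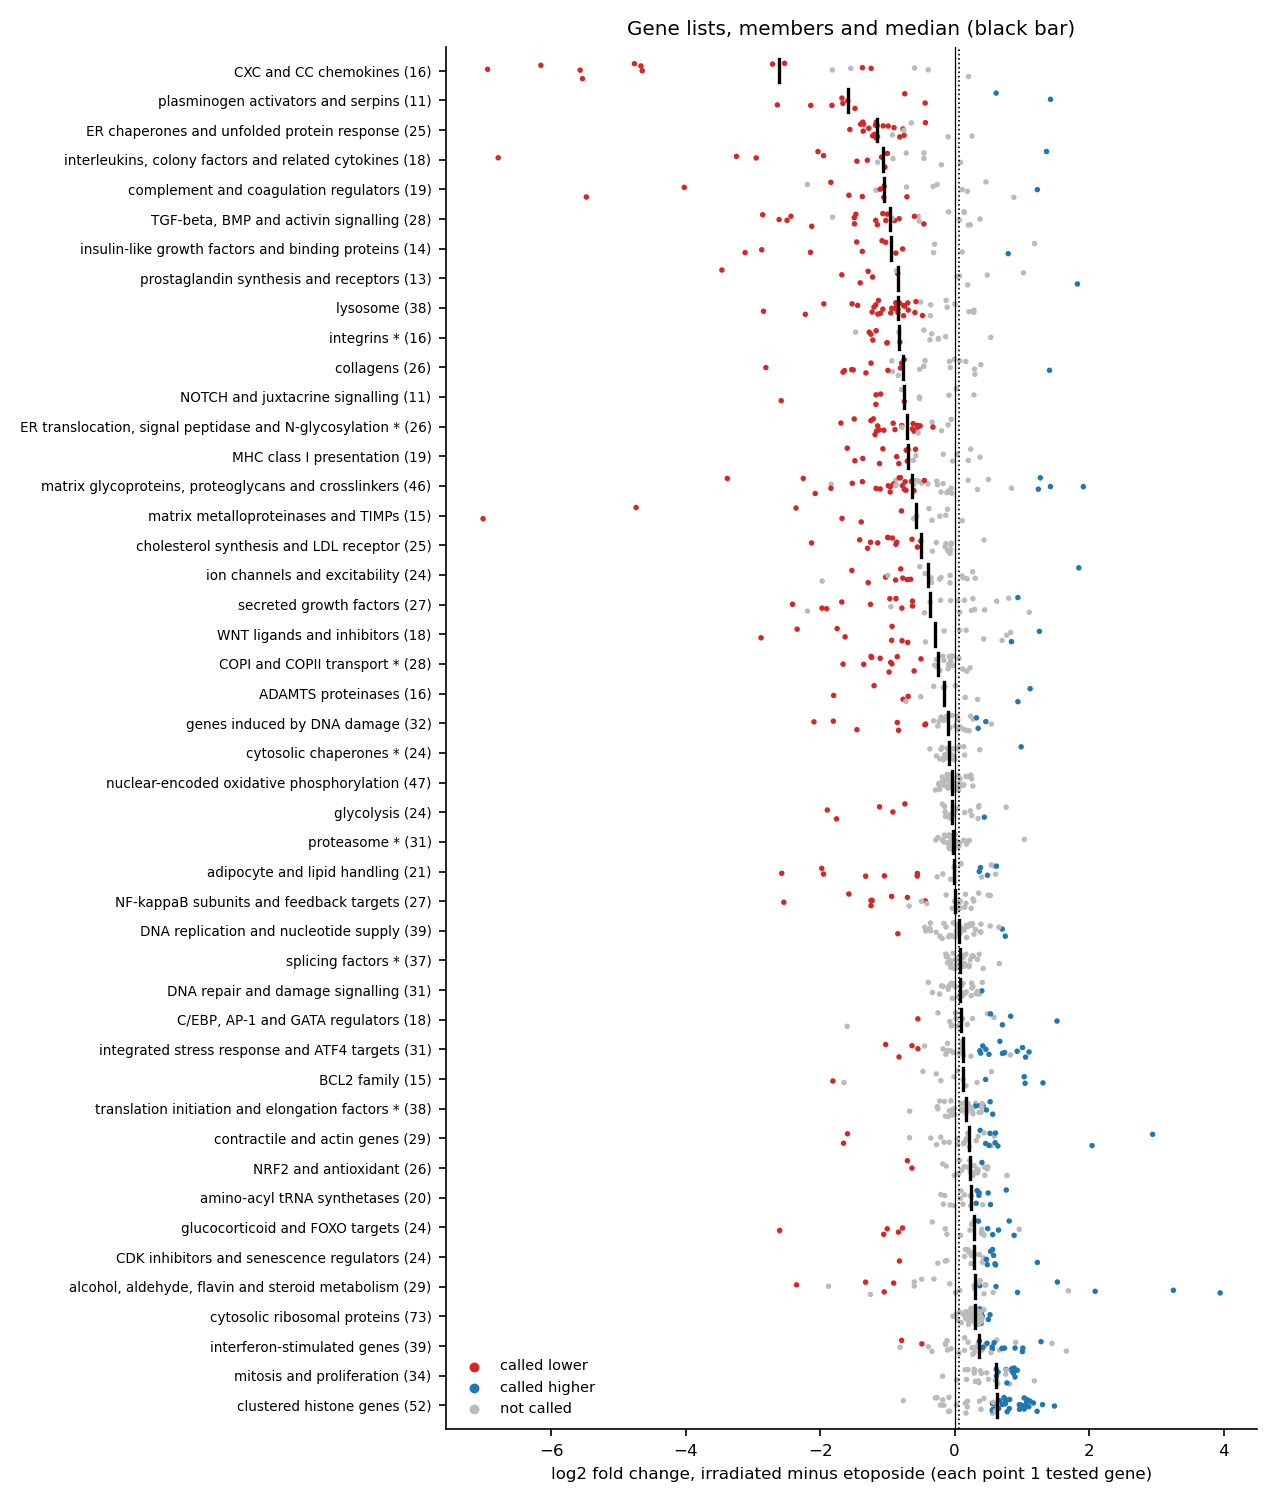
Log2 fold change, irradiated minus etoposide, of each tested gene by list, with the number tested in brackets, the list median as a black bar and the median of all genes tested (0.06) as a dotted line; red points are called lower, blue higher and grey not called, and a star marks a list added after values were seen. Lists of secreted, ER and lysosomal proteins lie left of 0, and ribosomal, interferon, mitosis and histone lists lie to the right.

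Matrix and growth factor genes leaned the same way. Of 26 tested collagens, 11 were lower and 1 higher (median -0.77), and 7 were lower without irradiated replicate 2 or 3 or etoposide replicate 2. COL4A1, a basement membrane collagen, had 184, 216 and 218 CPM after irradiation and 660, 652 and 610 CPM after etoposide, and COL5A2 (-1.51) and COL8A1 (-1.66) followed. Of 46 tested matrix glycoproteins, proteoglycans and crosslinking enzymes, 21 were lower and 4 higher (median -0.63). The lower count was 13 without irradiated replicate 1 and 12 without etoposide replicate 2, and the higher count was 2 without any library but etoposide replicate 3. PLOD2, which hydroxylates collagen lysines for crosslinking, had 62.6, 69.9 and 68.8 CPM against 294, 306 and 246 CPM, while THBS2, a secreted thrombospondin, had 172, 166 and 153 CPM against 57.6, 57.6 and 91.7 CPM. SPP1, osteopontin, was lower (-2.25), as was PLOD1 (-1.37).

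Of 28 tested genes of TGF-beta, BMP and activin signalling, 17 were lower and 0 higher (median -0.96). Their members include a ligand, BMP2 (-2.61), a receptor, TGFBR2 (-1.07), and targets. ID1, a target of BMP signalling that blocks differentiation factors, had 8.74, 8.66 and 13.8 CPM after irradiation and 73.6, 48.7 and 53.5 CPM after etoposide. ID3 had 26.3, 28.4 and 37.3 CPM against 146, 111 and 144 CPM. The ID proteins act inside the cell, whereas BMP2 is secreted. Any part of the site of protein synthesis in these differences was not tested. CCN2, a matricellular target, differed by -1.65. In the WNT list 8 of 18 were lower and 2 higher (1 without irradiated replicate 1 or 3 or etoposide replicate 2 or 3), the lower ones including the inhibitor DKK1 (-1.63) and WNT16 (-2.88), and in the list of other secreted growth factors NRG1, an ERBB ligand, differed by -1.97. Of 16 tested integrins, matrix receptors listed after values were seen, 7 were lower and 0 higher, ITGA5 among them (-1.27), and the lower count was 3 or 4 without irradiated replicate 1 or 3 or etoposide replicate 1 or 2.

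The machinery that folds and sorts secreted proteins was lower after irradiation as well. Of 25 tested ER chaperones and genes of the unfolded protein response, 20 were called lower and 0 higher, with a median of -1.15. PDIA4, a disulfide isomerase of the ER, had 56.6, 53.4 and 45.4 CPM after irradiation and 130, 134 and 132 CPM after etoposide. HYOU1, an ER chaperone, had 52.2, 62.1 and 46.9 CPM against 129, 141 and 143 CPM. CALR, the calcium-binding chaperone calreticulin, had 332, 364 and 298 CPM against 737, 965 and 862 CPM. In all 3 the cycling mean, 145, 104 and 832 CPM, lay nearer to the etoposide libraries. DNAJB9 (-1.40), a co-chaperone induced by the IRE1 branch, and DERL1 (-1.06), of ER-associated degradation, were lower. Of 26 genes of ER translocation, signal peptidase and N-glycosylation, a list added after values were seen, 19 were lower and 0 higher (median -0.70), among them SRPRB, a subunit of the receptor for the signal recognition particle (-1.69), and the oligosaccharyltransferase subunits RPN1 (-1.24) and DDOST (-1.14). Of 28 genes of COPI and COPII transport, also added, 11 were lower and 0 higher, with SURF4, an ER export receptor (-1.66), and KDELR3, which returns proteins to the ER (-1.24).

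Lysosomal genes behaved alike, 29 of 38 lower and 0 higher (median -0.84). CTSC, a protease that activates others, had 66.8, 71.3 and 69.5 CPM after irradiation and 364, 331 and 272 CPM after etoposide. NPC1, which exports cholesterol from lysosomes, had 9.23, 7.92 and 11.7 CPM against 35.1, 40.5 and 35.4 CPM. CTSS (-2.84) and the sialidase NEU1 (-1.14) followed. GLB1, the lysosomal beta-galactosidase whose activity is the usual stain for senescence, had 39.3, 45.2 and 41.5 CPM after irradiation and 75.4, 77.7 and 69.2 CPM after etoposide, with cycling and quiescent means of 61.6 and 43.9 CPM. Genes of cholesterol synthesis, whose enzymes sit largely in the ER membrane, were lower in 13 of 25 cases and higher in 0 (median -0.50), including SQLE (-0.99) and CYP51A1 (-1.41). In MHC class I presentation 11 of 19 were lower and 0 higher, 7 of them without irradiated replicate 3. The peptide transporter genes TAP1 (-1.48) and TAP2 (-1.60) and HLA-E (-0.58) were among them, and HLA genes share sequence.

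Across all libraries the summed level of the ER chaperone list was 1533 to 1604 CPM after irradiation, 3058 to 3459 CPM after etoposide, 3223 to 3237 CPM in cycling and 1297 to 2461 CPM in quiescent cells. The list of ER translocation genes had 3143 to 3508, 4948 to 5982, 5155 to 5456 and 2745 to 3770 CPM in the same order. Relative to cycling cells the median of the chaperone list was -0.95 after irradiation and 0.03 after etoposide. A measure that the fit did not use moved with these lists: the 13 mRNAs encoded by the mitochondrial genome made up 0.147, 0.0874 and 0.103% of gene counts in irradiated libraries, 0.314, 0.446 and 0.451% in etoposide libraries, 0.311 and 0.413% in cycling, and 0.0357, 0.160 and 0.146% in quiescent libraries. The irradiated and quiescent libraries lay below the etoposide and cycling libraries in both ER-related and mitochondrially encoded mRNA. Quiescent libraries differed among themselves. The ER chaperone list had 1297 CPM in quiescent replicate 1, and 2209 and 2461 CPM in replicates 2 and 3, which stood above the irradiated libraries. The thapsigargin libraries had 0.0991 and 0.217% mitochondrially encoded mRNA beside an ER translocation level of 5147 and 4566 CPM, so there the measures did not go together. Nuclear-encoded genes of oxidative phosphorylation did not share this, with 0 of 47 called and a median of -0.04, nor did the cytosolic counterparts of the folding and degradation machinery, with 1 of 24 cytosolic chaperones and 0 of 31 proteasome genes called. RNA was taken from lysates, and the part of a difference in how much membrane-bound RNA entered the lysate, in the ER lists and in the secreted, matrix, lysosomal and membrane receptor lists above, was not tested.

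**Figure D4:**
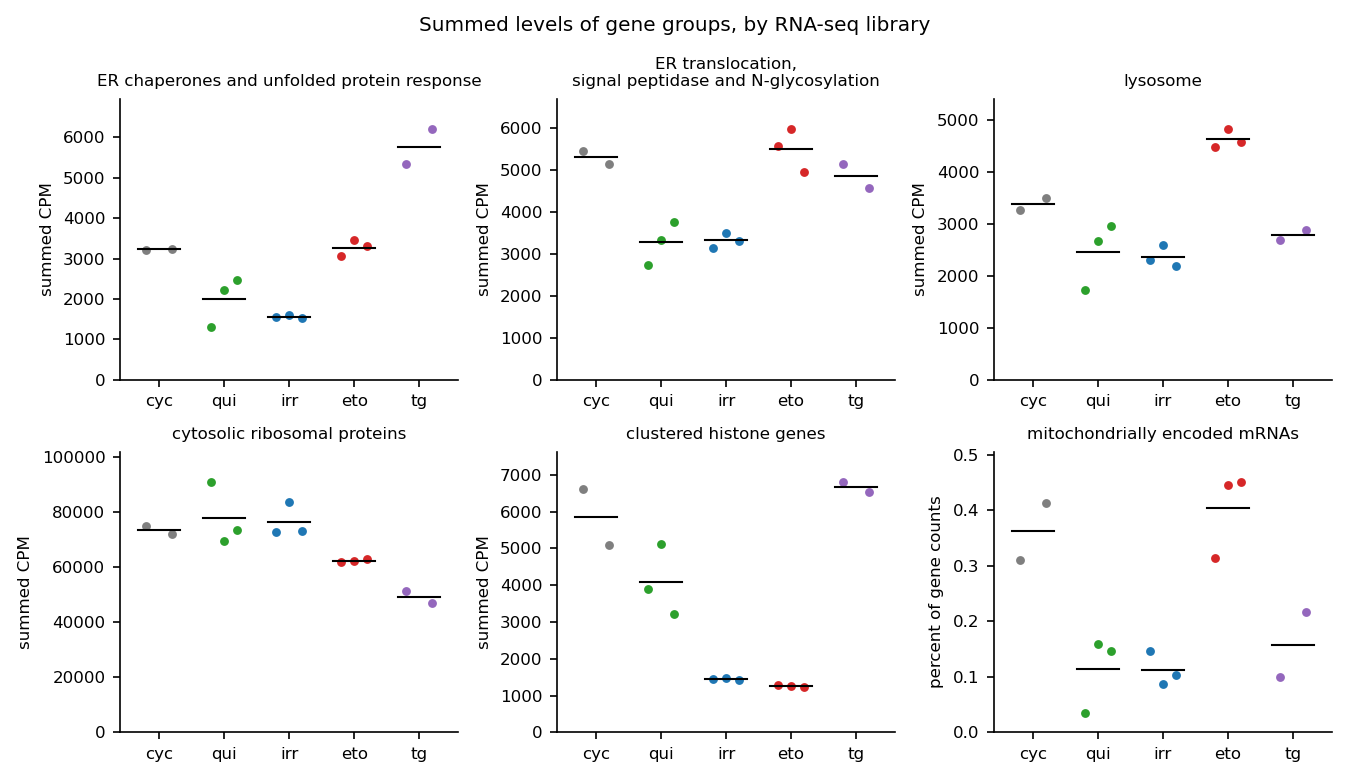
Summed CPM of 5 gene lists and the percent of gene counts from the 13 mitochondrially encoded mRNAs, 1 point per RNA-seq library with a bar at the group mean and axes from 0; cyc is cycling, qui quiescent, irr irradiated, eto etoposide and tg thapsigargin. The ER, lysosome and mitochondrial panels show irradiated libraries below etoposide libraries without overlap, and the ribosomal protein and histone panels show them above.

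The genes higher after irradiation were fewer at large folds and of other kinds. ADH1B, a class I alcohol dehydrogenase (chr4:99304971-99321401), had 170, 107 and 154 CPM after irradiation and 12.3, 2.95 and 12.7 CPM after etoposide, a 15.5-fold difference (log2 3.95 ± 0.49, edgeR adjusted p = 0.000202). FMO2, a flavin monooxygenase of the lung (chr1:171185300-171212686), had 63.7, 47.8 and 48.2 CPM against 7.12, 3.56 and 6.08 CPM (9.54-fold). For both the groups were far apart, the quiescent means of 38.2 and 13.4 CPM stood between them, and the cycling means of 3.83 and 1.56 CPM stood below or within the etoposide range. Neighbours of ADH1B moved with it. At chr4:99070978-99435342, from ADH5 to ADH7, all 3 tested genes (ADH5, ADH1B and ADH1C) were higher, and ADH1B and ADH1C are close copies. Of 29 tested genes of alcohol, aldehyde, flavin and steroid metabolism, 7 were higher (24.1%, against 9.65% of all genes tested). The 4 lower (13.8%) were near the share of all genes tested, 12.9%, and the median was 0.30. HSD11B1, which activates cortisol, was lower (-2.35). The higher count was 4 without irradiated replicate 2 or 3 or etoposide replicate 2.

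**Figure D5:**
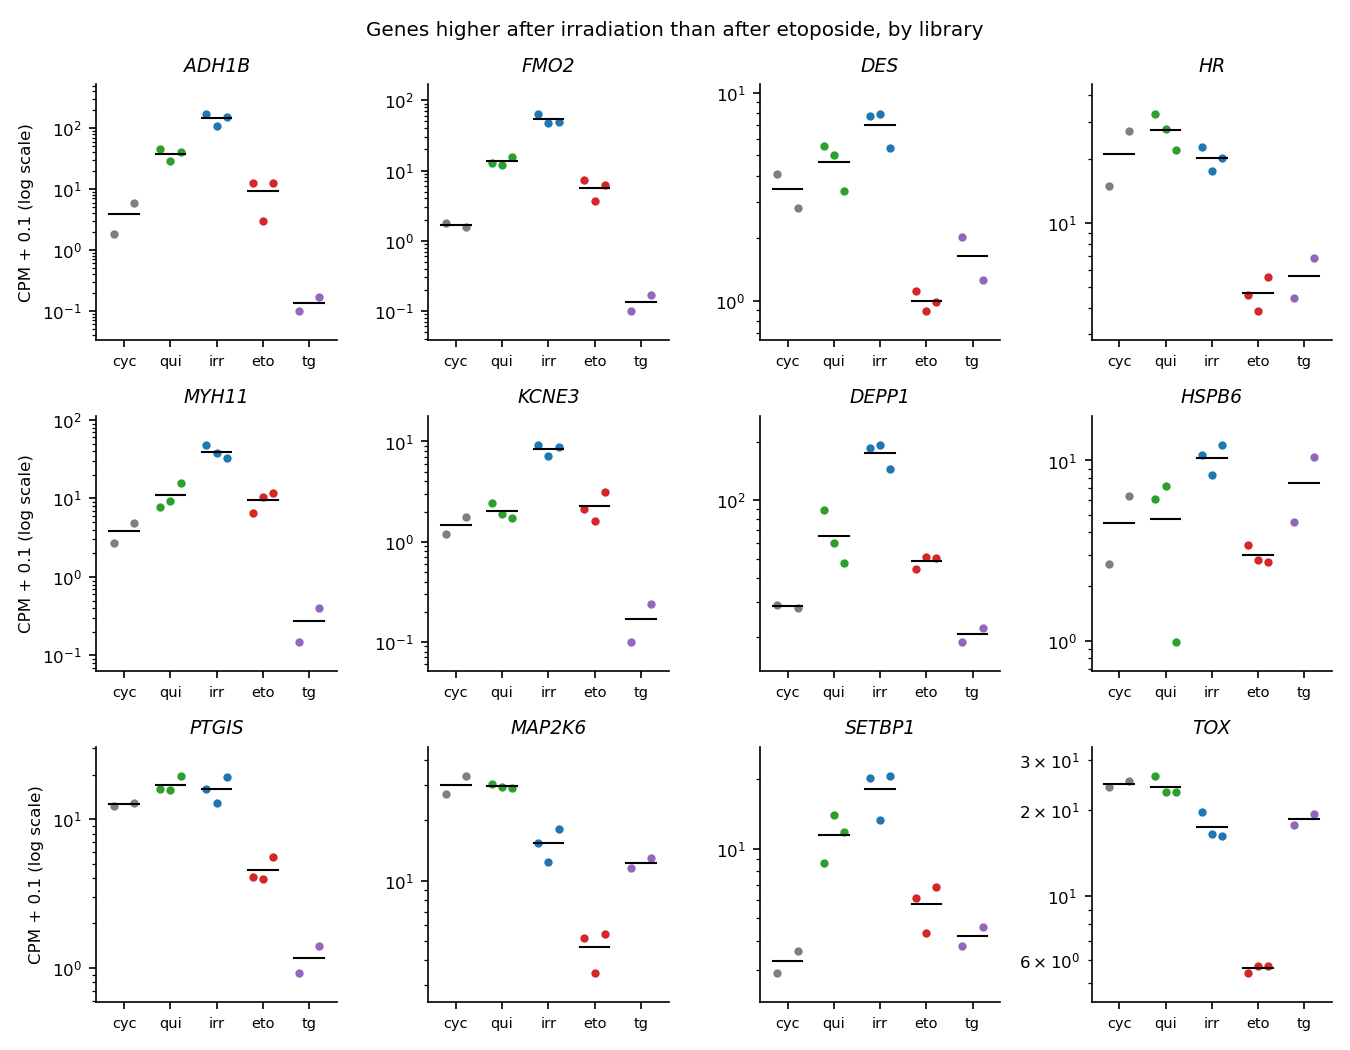
CPM plus 0.1 on a log axis for the 12 genes with the largest difference on the higher side, 1 point per RNA-seq library and a bar at the group mean; cyc is cycling, qui quiescent, irr irradiated, eto etoposide and tg thapsigargin. In all 12 panels the 3 irradiated points lie above the 3 etoposide points; for TOX and MAP2K6 the cycling and quiescent points lie above both.

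Contractile genes were prominent at the high end. DES, the muscle intermediate filament desmin, had 7.64, 7.81 and 5.33 CPM after irradiation and 1.01, 0.795 and 0.888 CPM after etoposide (log2 2.95 ± 0.29). MYH11, smooth muscle myosin, had 47.8, 37.6 and 32.6 CPM against 6.38, 10.4 and 11.7 CPM (log2 2.05 ± 0.33, edgeR adjusted p = 0.000906). Of 29 tested contractile and actin genes 9 were higher and 2 lower (median 0.22). Both genes also stand in the marker list of pericytes and smooth muscle, in which 3 of 10 were higher, 3 lower (RGS5, MCAM and KCNJ8) and the summed level was 483 to 562 CPM against 516 to 680 CPM. Cells of that kind were not tested for as a source.

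The other genes of largest difference held several groups. For DEPP1, a target of FOXO factors, the values were 185, 192 and 145 CPM against 44.0, 50.9 and 50.7 CPM, and for HR, a nuclear corepressor, 22.8, 17.6 and 20.1 CPM against 4.50, 3.77 and 5.49 CPM. HR stood near its cycling mean of 21 CPM in irradiated cells and below it after etoposide. TOX, a chromatin-associated factor, had 19.6, 16.4 and 16.2 CPM against 5.30, 5.60 and 5.63 CPM, all below its cycling mean of 24.6 CPM. MAP2K6, a kinase that activates p38, differed by 1.73, SETBP1 by 1.67 and KCNE3, a potassium channel subunit, by 1.92. HSPB6, a small heat shock protein, differed by 1.84 ± 0.54 with an adjusted p of 0.0251 in edgeR's test, and was not called when any library but irradiated replicate 2 was left out. Of 15 tested BCL2 family genes 4 were higher and 1 lower. BCL2, which holds back apoptosis, had 12.8, 12.4 and 12.8 CPM against 6.32, 5.69 and 6.35 CPM, BMF, which promotes it, had 11.2, 7.77 and 9.22 CPM against 3.77, 3.59 and 3.96 CPM, and BCL2A1, an NF-kappaB target that holds it back, was lower (-1.81).

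Among genes of the arrest, 8 of 24 listed inhibitors and senescence regulators were higher after irradiation and 1 lower (median 0.29). CDKN1A, the gene of p21, which inhibits cyclin-dependent kinases, had 2444, 2858 and 2429 CPM after irradiation and 2860, 3178 and 3145 CPM after etoposide, against 798 CPM in cycling cells. It was raised over cycling cells in both, the groups did not overlap by a narrow gap, and the difference of -0.25 ± 0.13 on the log2 scale was not called (edgeR adjusted p = 0.202). With only these 6 libraries fitted, it was called (edgeR adjusted p = 0.0321). CDKN2A, the gene of p16 and p14ARF, had 25.9, 27.6 and 22.3 CPM against 16.8, 19.6 and 20.5 CPM and was not called either (0.41 ± 0.19), and it too was called with the 6 libraries alone (edgeR adjusted p = 0.0334). In footprints CDKN1A was called lower (-0.38, edgeR adjusted p = 0.0312) and CDKN2A was not called. CDKN2B, the gene of p15, overlapped. The higher members included CDKN1C, p57, by 1.23 and RBL2, the pocket protein p130, by 0.54. The higher count was 4 without irradiated replicate 1 or 2 and 5 without irradiated replicate 3 or etoposide replicate 2 or 3.

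In a list of genes known to be induced by DNA damage, the share of higher calls was near that over all genes tested. Of 32 tested, 7 were lower (21.9%, against 12.9% of all genes tested) and 3 higher (9.38%, against 9.65%). The median was -0.09. The lower ones included the death receptors FAS (35.2, 35.0 and 40.1 CPM against 67.4, 66.8 and 62.3 CPM) and TNFRSF10B (120, 135 and 121 CPM against 211, 231 and 237 CPM), and the decoy receptors TNFRSF10C (-1.80) and TNFRSF10D (-2.09), all of them membrane proteins, together with the secreted GDF15 and the kinases PLK2 and PLK3. The 3 higher included SESN2 and PPM1D, and 0 or 1 were higher without irradiated replicate 1 or 3 or etoposide replicate 1 or 2.

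Proliferation genes were very low in both states and less so after irradiation. LMNB1, lamin B1, whose loss is a mark of senescence, had 6.70, 6.25 and 6.67 CPM after irradiation, 4.61, 4.33 and 3.93 CPM after etoposide and 76.1 CPM in cycling cells. Of 34 tested mitosis genes, 12 were higher and 0 lower after irradiation (median 0.62), while the median relative to cycling cells was -3.09 after irradiation and -3.64 after etoposide. The higher count was 4 without irradiated replicate 3, 7 without etoposide replicate 2 and 5 without etoposide replicate 3. KIF20A, a mitotic kinesin, had 10.8, 12 and 12 CPM against 7.75, 6.28 and 4.90 CPM, with 154 CPM in cycling cells. BIRC5, survivin, differed by 0.93 and BUB1, a spindle checkpoint kinase, by 0.88. MKI67, the usual proliferation marker, had 15.2, 10.5 and 18.1 CPM against 7.78, 6.51 and 4.98 CPM and just missed the threshold (1.19 ± 0.43, edgeR adjusted p = 0.0607), which it passed with the 6 libraries alone (edgeR adjusted p = 0.0012) and with the replicate number as a block (edgeR adjusted p = 0.0484). A few cells still dividing and a low level in every cell cannot be told apart in bulk RNA.

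Histone genes of the replication-dependent clusters were often higher after irradiation. Of 52 tested, 30 were called higher and 0 lower, with a median of 0.64, and 9 had a difference below 0. The summed level differed less, at 1433 to 1490 CPM after irradiation and 1238 to 1291 CPM after etoposide. H1-4, a linker histone, had 65.2, 67.5 and 57.0 CPM against 33.7, 25.6 and 33.3 CPM, and H4C5, a core histone, had 180, 156 and 159 CPM against 71.1, 70.0 and 92.6 CPM. H1-3 differed by 1.23. Both states were far below cycling cells, with list medians of -2.91 and -3.65. The count was 18 without irradiated replicate 1, 19 without irradiated replicate 2 and 17 without etoposide replicate 2, and near-identical histone genes share reads. Replication and nucleotide supply genes did not follow, with 2 of 39 higher and 1 lower, counts that were 0 to 2 with 1 library left out.

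Interferon-stimulated genes, which answer type I interferon, were somewhat higher after irradiation, 12 of 39 tested, with 2 lower and a median of 0.37. Their summed level was 1692 to 1768 CPM after irradiation and 1621 to 1684 CPM after etoposide. Without irradiated replicate 1 the count of higher genes was 7 and without etoposide replicate 2 it was 6, and 1 was lower without irradiated replicate 1 or 3 or etoposide replicate 3. IFIT2, an antiviral protein, had 24.6, 26.9 and 23.8 CPM after irradiation, 11.3, 12.7 and 13.2 CPM after etoposide and 8.49 CPM in cycling cells. MX1, an antiviral GTPase, differed by 0.90 and PARP9 by 0.74.

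Of 31 tested genes of the integrated stress response, which ATF4 directs when initiation factor eIF2 is phosphorylated, 12 were higher and 4 lower, and 7 were higher without etoposide replicate 2. TRIB3, an ATF4 target, had 157, 189 and 177 CPM against 71.7, 77.9 and 93.4 CPM. NUPR1 differed by 0.93, ATF4 by 0.39 and DDIT3, the stress factor CHOP, by 0.42; the calls of ATF4 and DDIT3 were lost without irradiated replicate 2 or etoposide replicate 2, and that of DDIT3 also without etoposide replicate 1. Of 20 tested aminoacyl tRNA synthetases 7 were higher and 0 lower, with WARS1 (0.77) and GARS1 (0.53), and 3 or 4 without irradiated replicate 2 or any etoposide replicate. Of 73 ribosomal protein genes 72 had a difference above 0 (median 0.30), but 6 were called, RPL5 among them at 0.50. The share called higher, 8.22%, was near the 9.65% of all genes tested. The count ran from 0 without irradiated replicate 2 or etoposide replicate 2 to 30 with the 6 libraries alone. EIF2S3, a subunit of eIF2 named after its value was seen, differed by 0.57. Glycolysis genes had a median of -0.04, but the transporters SLC2A1, for glucose (-1.75), and SLC16A3, for lactate (-1.89), both membrane proteins, were lower.

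Ribosome profiling, which sequences the mRNA fragments that ribosomes protect, was made from part of the same lysates and so gives a further readout of the same cells rather than an independent experiment. In 3 irradiated libraries of 2652013 to 5556293 gene counts and 3 etoposide libraries of 6159333 to 6980115, 3354 of 11734 tested genes were called (28.6%), 1482 higher (12.6%) and 1872 lower (16%) after irradiation. Without irradiated replicate 1 the count was 2073. Of the 2998 genes called in RNA-seq, 2817 were also tested in ribosome profiling. Of these, 2754 had the same direction (97.8%), 2014 were called the same way and 0 the opposite way, while 79.6% of the 11692 genes tested in both shared a direction. The footprint difference was -7.34 for MMP3, -7.59 for CXCL5, -6.63 for CXCL8, -6.05 for CXCL1, -5.34 for TFPI2, -4.57 for C3, -4.43 for STC1 and -5.36 for PTGS2, all on the log2 scale. On the other side it was 3.92 for ADH1B, 3.02 for FMO2, 2.08 for DES and 1.94 for MYH11. For PDIA4 it was -1.79, for HYOU1 -1.68 and for CTSC -2.48, and the ER chaperone list had 20 of 24 lower and 0 higher. In footprints the mitosis list had 5 of 34 higher, 0 lower and a median of 0.23, and in RNA 12 of 34 and 0.62; the difference between the readouts was not tested. KIF20A was called (0.88), and BUB1 (0.25, edgeR adjusted p = 0.633), MKI67 (0.07) and LMNB1 (0.44, edgeR adjusted p = 0.0936) were not. H1-4 was higher by 1.31. Of 49 histone genes tested in footprints, 39 were higher and 0 lower. The chemokine list had 8 of 10 lower and the lysosome list 29 of 38, with 0 higher in both. Of 70 ribosomal protein genes 6 were higher and 0 lower, with a median of 0.10, while 12.6% of all genes tested were higher. Of 39 interferon-stimulated genes 32 were tested, 11 higher and 3 lower. In the stress response list 12 of 31 were higher and 7 lower.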

How the data were processed

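RNA-seq reads of IMR90 lysates were aligned to hg38, and the notes name STAR 2.7.10b, bcl2fastq and DESeq2 1.36.0, per the submitters' processing notes. The deposited files hold raw counts of reads per Ensembl gene ID, by strand, made by the authors. The reverse-strand column was used for RNA-seq and the forward-strand column for ribosome profiling. Reads on several genes or places are outside these counts. Of 62703 gene IDs, 40763 matched the RefSeq table (GRCh38.p14) by symbol and 19318 were protein coding; the 13 mitochondrially encoded genes were not matched and entered no test.

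All 13 RNA-seq libraries of 5 states were fitted with edgeR 4.0.16 in R 4.3.3 (quasi-likelihood F test, robust dispersion, TMM scaling, filterByExpr), with the contrast irradiated minus etoposide, two-sided, and Benjamini-Hochberg adjustment over all genes tested; genes were called at 0.05. The 12 ribosome profiling libraries without thapsigargin were fitted alike. In any list, a gene near 0 after irradiation may have passed the filter through its etoposide level and could then only be called lower. CPM are counts scaled to a library of 1000000 tested counts, with TMM factors. The fit was tested on simulated counts. The named genes were the 12 called genes of largest difference per direction without overlap and with a mean of at least 5 CPM in the higher group, up to 5 members of smallest p per list, and a panel of senescence genes; 9 genes with fitted values in the text lie outside this rule. The members and lists were chosen with earlier results of these data known, and 7 lists were added after values were seen. Alternatives were DESeq2 1.42.0, relative log expression scaling, no filter, the 6 libraries alone, a replicate block, each library left out, no thapsigargin libraries, unstranded counts and all gene IDs. Total gene counts of 28859390 to 41351402 per library set the counting precision. A few genes of the lists are not reported here.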

Additional observations from a re-analysis of the deposited data

How the results depend on the processing

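The 2998 calls in RNA-seq became 1842 to 2313 when 1 library was left out (1896 without irradiated replicate 1 and 1842 without etoposide replicate 2), with the share of higher calls at 31.2 to 38.5% against 42.8%; fewer libraries entered those fits. In ribosome profiling, 3354 calls became 2073 to 2764, the lowest without irradiated replicate 1. The number of gene lists with at least 25% of members lower was 21 of 39, and 20 in each fit with 1 library left out. The lists were chosen with earlier results known and can share genes, so this number does not measure stability. Counts within single lists moved more, as for matrix glycoproteins, with 21 lower and 12 without etoposide replicate 2. Relative log expression scaling gave 2862 calls, DESeq2 3365, no filter 2792, unstranded counts 2906, all gene IDs 3051 and the 6 libraries alone 4385. The correlations of same-numbered deviations were -0.11, 0.15 and -0.06, and those of differently numbered libraries ran from -0.12 to 0.19. Values this small from 3 libraries per group cannot decide whether same-numbered libraries were paired. The fit with the replicate block gave 2954 calls in RNA-seq. Of 119 named genes called, 114 were called under every alternative tried, and the exceptions were HSPB6, NFKBIA, ATF4, DDIT3 and RPL5. Most named genes were picked by size or p in these same data, so that they stayed called does not measure the stability of calls at large. NFKB1 went from -0.03 to 0.0102 without irradiated replicate 1, with -0.0893 without irradiated replicate 3 as the lowest value; the cause was not tested. IL1A was also called with the 6 libraries alone and without the thapsigargin libraries. Genes under about 20 counts in a group, such as MMP10, PF4V1 and CCL7, carry the least certain folds. List medians kept their sign in 703 of 714 cases; those that changed were within 0.05 of 0 or belonged to the epithelial marker list and the lipid handling list.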

Other observations

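Of the 13291 tested genes, 2 had 0 counts in all 3 irradiated libraries and at least 3 counts in each of the 10 other RNA-seq libraries, and 0 genes met the same condition for etoposide. They were MTMR7, a phosphoinositide phosphatase, and GABRA4, a subunit of the GABA-A receptor. MTMR7 had 8 to 14 counts in etoposide libraries, 8 to 16 in cycling and 12 to 23 in quiescent libraries. Taking 3 counts over the irradiated group as the floor, it was at least 8.55-fold lower than in etoposide-treated cells and at least 13.3-fold lower than in cycling cells. GABRA4 had 3 to 6 counts in etoposide, 25 to 41 in cycling and 22 to 34 in quiescent libraries, at least 3.11-fold and 36.5-fold above the irradiated floor in etoposide-treated and cycling cells. Both levels are low, and both genes were picked after their values were seen.

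In the list of glucocorticoid and FOXO targets, 6 of 24 tested genes were higher after irradiation and 5 lower. The metallothionein genes MT1E, MT1X and MT2A, the phosphatase gene DUSP1 and PDK4, an inhibitor of pyruvate dehydrogenase, made up the lower ones, with log2 differences of -0.83, -1.0, -0.77, -1.05 and -2.60. The higher ones were SESN3, FOXO3, TXNIP, IRS2, TSC22D3 and NR3C1, the glucocorticoid receptor, at 0.36 to 0.89.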
